A study of Mus musculus with 8 samples.

Results

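The core and linker histone genes were followed in RNA of mouse B cells 3 days after immunization. Members were taken by symbol, as every row of the count table named as a gene of the H1, H2A, H2B, H3 or H4 families in either the older Hist naming or the newer one (H1f, H2ac, H2bc, H3c and H4c followed by a number), which gave 65 of 24259 rows. They comprised 7 linker histone H1 genes, 18 H2A, 17 H2B, 11 H3 and 12 H4 genes. GENCODE placed 53 of them in the large histone cluster on chromosome 13, 8 in the smaller cluster on chromosome 3 and 3 outside both (H1f0, H1f10 and Hist1h2al), and 1 (H2ac5-ps) had no position there. Of the 64 with an annotation, 62 were protein coding and 2 (H2ac14 and Hist1h2al) were pseudogenes. The sequenced cells were NP-binding, IgD-low, B220-positive C57BL/6 B cells, that is, B cells specific for the hapten NP on their way to the germinal center, sorted from lymph nodes after NP-OVA was given with LPS in alum. Recipients carried no functional SAP, an adaptor that their own helper T cells need, and received ovalbumin-specific OT-II T cells. The transferred T cells of the HET group were CD4-Cre with 1 floxed Bcl6 allele, and those of the WT group were CD4-Cre alone, so both groups carried the Cre, which acts in T cells, and the Bcl6 deletion lay outside the sequenced cells. Each group had 4 libraries of about 200 cells, which the study's methods describe as repeats sorted from 1 pool of recipients per group. P-values therefore measure the spread of sorting and library preparation, and pool and group cannot be told apart.

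The core histones H2A, H2B, H3 and H4 form the protein spool around which DNA is wound, and the linker histone H1 binds where the DNA enters and leaves it. A cell that copies its DNA needs new histones at once, and the replication-dependent genes, which lie in clusters and have no introns in their classical form, are transcribed mainly in S phase. Their mRNAs usually end in a conserved stem-loop instead of a poly(A) tail, and they are destroyed when DNA synthesis stops. B cells that divide quickly, as before and in the germinal center, are a setting in which these genes are used heavily. The libraries were made with a SMART-Seq2 method, which primes on poly(A), so the counts come from histone RNA that was polyadenylated or primed within the message and do not measure total histone mRNA.

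The stem-loop is the feature that sets this family apart, and its letters were searched in the GENCODE transcripts, on the transcript's own strand, as GGCNC followed at once by TTTTNA and then by GNGCC (N is any base). It was present in 36 of 64 members (56.25%) and in 11 of 55386 other annotated genes (0.0199%), most of which were histone genes under other symbols. The search covered only the annotated models, and some of those without a match are short. H2ac13 and H2ac15 have 393 bases, whereas Hist1h2ap has 482 and ends 3 bases after its stem-loop. A missing match therefore does not show that a gene lacks the stem-loop. The sequences below are those of members described in the results, read from GENCODE M21 transcripts on GRCm38, with the stem-loop in capitals and at most 5 bases on each side.
H4c4, chr13:23581950-23581965, plus strand: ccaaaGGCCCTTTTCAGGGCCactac
H4c8, chr13:23531458-23531473, plus strand: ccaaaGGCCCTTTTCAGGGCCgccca
H4c9, chr13:22040966-22040981, minus strand: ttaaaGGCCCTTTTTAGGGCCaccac
H2ac8, chr13:23570668-23570683, minus strand: acaaaGGCTCTTTTCAGAGCCattca
H2ac11, chr13:22042483-22042498, minus strand: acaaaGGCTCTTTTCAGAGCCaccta
Hist1h2ap, chr13:21833029-21833044, minus strand: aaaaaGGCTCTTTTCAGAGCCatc
H2bc8, chr13:23571843-23571858, plus strand: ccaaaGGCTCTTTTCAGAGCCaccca
H1f2, chr13:23739512-23739527, plus strand: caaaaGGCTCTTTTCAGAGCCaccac
The stem differed by class. All 8 H4 members with a match had the stem GGCCCT paired with AGGGCC, 6 with the loop TTTC between them and 2 with TTTT. The 28 matches in H1, H2A, H2B and H3 members had GGCTCT paired with AGAGCC, and 22 of them were the same 16 letters. The coordinates cover the capitals only. The model of Hist1h2ap ends 3 bases after the stem-loop, whereas that of H4c4 runs on for 770 bases and that of H1f2 for 840.

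H2ac8 and H2bc8 lie head to head with 175 bases between their gene models and are read in opposite directions from the same stretch of DNA, which is why it is printed here. The window below is the RefSeq promoter of H2bc8 on GRCm38.p6 (chr13:23571150-23571449, plus strand, 250 bases before the start and 50 after), with CCAAT or its reverse complement ATTGG and TATAAA in capitals. CCAAT and TATAAA are the letters of the CCAAT box and the TATA box, both common in histone promoters.
H2bc8 promoter: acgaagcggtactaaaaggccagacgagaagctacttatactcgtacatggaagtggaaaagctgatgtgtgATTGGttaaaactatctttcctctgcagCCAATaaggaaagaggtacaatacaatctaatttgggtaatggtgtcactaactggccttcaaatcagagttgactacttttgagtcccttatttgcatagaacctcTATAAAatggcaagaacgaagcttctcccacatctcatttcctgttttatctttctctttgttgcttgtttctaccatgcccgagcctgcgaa
The promoter of H4c4, the member with the lowest p in the comparison of the groups, lies at chr13:23581318-23581617 on the plus strand.
H4c4 promoter: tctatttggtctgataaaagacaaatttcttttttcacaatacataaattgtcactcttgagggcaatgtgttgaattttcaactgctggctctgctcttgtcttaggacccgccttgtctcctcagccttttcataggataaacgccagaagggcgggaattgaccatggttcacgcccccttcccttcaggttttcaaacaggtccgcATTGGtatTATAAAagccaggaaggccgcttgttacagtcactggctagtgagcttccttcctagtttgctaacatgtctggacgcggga
RefSeq gave a promoter window for 56 members. CCAAT occurred on either strand in 46 of them (82.1%), against 37.4% of all 32851 windows. TATAAA occurred in 32 (57.1%), against 13.6%, and both occurred in 26 (46.4%), against 5.31%. Members counted once, if any of their windows held the letters, whereas all windows were counted singly. The H4 genes went the other way for CCAAT. It occurred in the windows of H4c1, H4c3 and H4c4. It was absent from those of H4c2, H4c6, H4c8, H4c9, H4c11, H4c12, Hist1h4m and Hist1h4n. A match of letters describes the window and shows no binding.

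Library depth ranged from 6652386 to 12559189 counts, of which 3190 to 6972 fell on the 65 histone members. Expression is given as CPM, that is, counts scaled to a common library size after TMM normalization. At these depths, 3 counts correspond to 0.241 to 0.455 CPM, and values below that are at the counting floor. At least 1 count was found for 61, 57, 56 and 57 members in HET repeats 1 to 4 and for 59, 51, 57 and 49 members in the WT repeats. The mean number was 57.8 ± 2.22 for HET against 54.0 ± 4.76 for WT (SD over 4 libraries each), and the ranges overlapped. All 8 libraries held counts for 39 members, 10 members never exceeded 10 counts in any library, and 3 never exceeded 3. The sorted cells carried their B cell label, since 9 B cell genes (among them Cd79a, Cd79b and Ms4a1) summed to between 20878 and 26487 CPM. The largest part of that sum was Cd74, with means of 11197 CPM in HET and 14139 CPM in WT. Cd79a averaged 3547 and 3881 CPM, Cd79b 2530 and 2988 CPM, and Ms4a1 1507 and 1703 CPM.

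The histone signal was concentrated in a few genes. Depending on the library, the 5 most abundant members made up 43.0% to 52.8% of summed member CPM. To compare levels between genes, CPM was divided by the kilobases of annotated exon. On this scale the highest mean level over the 8 libraries belonged to Hist1h2ap, an H2A gene, at 108 CPM per kb, followed by H2ac11 at 74.3 and H4c4 at 57.6. H4c9 (38.9), Hist1h2ao (37.4), H2ac8 (36.9), Hist1h4m (29.6), H1f2 (25.7), H1f5 (25.3) and H4c3 (22.9) came next. The most abundant H2B member, H2bc8, reached 13.7 CPM per kb, and the most abundant H3 member, H3c1, reached 7.18. At the other end, H2bc1 had 1 count in all 8 libraries together, Hist1h2bp 3 counts and Hist1h2al 4.

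Among the members, the classes were therefore not represented equally, although a nucleosome holds its 4 core histones in equal numbers. Variant genes outside the members are not in these sums. The H3 variant genes H3f3a and H3f3b averaged 1532 and 1181 CPM in HET and 1624 and 1223 CPM in WT. All H3 members together averaged 22.0 CPM in HET and 21.8 CPM in WT, so they do not give the whole H3 message. Per kb of exon, H2A members summed to between 344 and 514 CPM per kb in HET and between 118 and 427 in WT. H4 members summed to 181 to 229 over all 8 libraries, H2B members to 35.1 to 61.4, H1 members to 46.5 to 93.9 and H3 members to 24.7 to 39.2. H4 exceeded H2B and H3 in every library on this scale, whereas H2A was below H4 in 2 WT libraries, repeats 2 and 4.

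To ask whether B cells helped by Bcl6-heterozygous T cells differed in histone transcripts, HET was compared with WT for each gene. Of the 65 members, 41 had enough counts to be tested (6 H1, 13 H2A, 7 H2B, 7 H3 and 8 H4). No member passed an adjusted p of 0.05 in edgeR, where the background was 3 of 12744 genes, or 0.0235%. DESeq2, the study's own tool, called 2 members higher in HET, H4c4 with an adjusted p of 0.00989 and H2ac8 with 0.0412, among 77 called genes (0.656% of the genes it adjusted, with 6 members left without an adjusted p). In edgeR at an unadjusted p under 0.05, 3 members were higher in HET (Hist1h2ap, H4c4 and H2ac8), beside 3.34% of all genes, and 2 were lower (H2bc8 and H4c8), beside 3.88%. The groups did not overlap, with HET higher, for H4c4 and H2ac8, beside 1.99% of all genes, and with HET lower for H4c8 and Hist1h4m, beside 2.62%.

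The direction was uneven across the members. Log2 fold changes of HET over WT were positive for 28 of the 41 and negative for 13, where 49.9% of all tested genes were positive, and their median was 0.48, where that of all genes was -0.0014. The median was 1.02 for H2A, 0.55 for H1, 0.37 for H3, 0.29 for H2B and -0.16 for H4. Many members share sequence and their reads are not independent, so neither count is a test of the family.

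**Figure D1:**
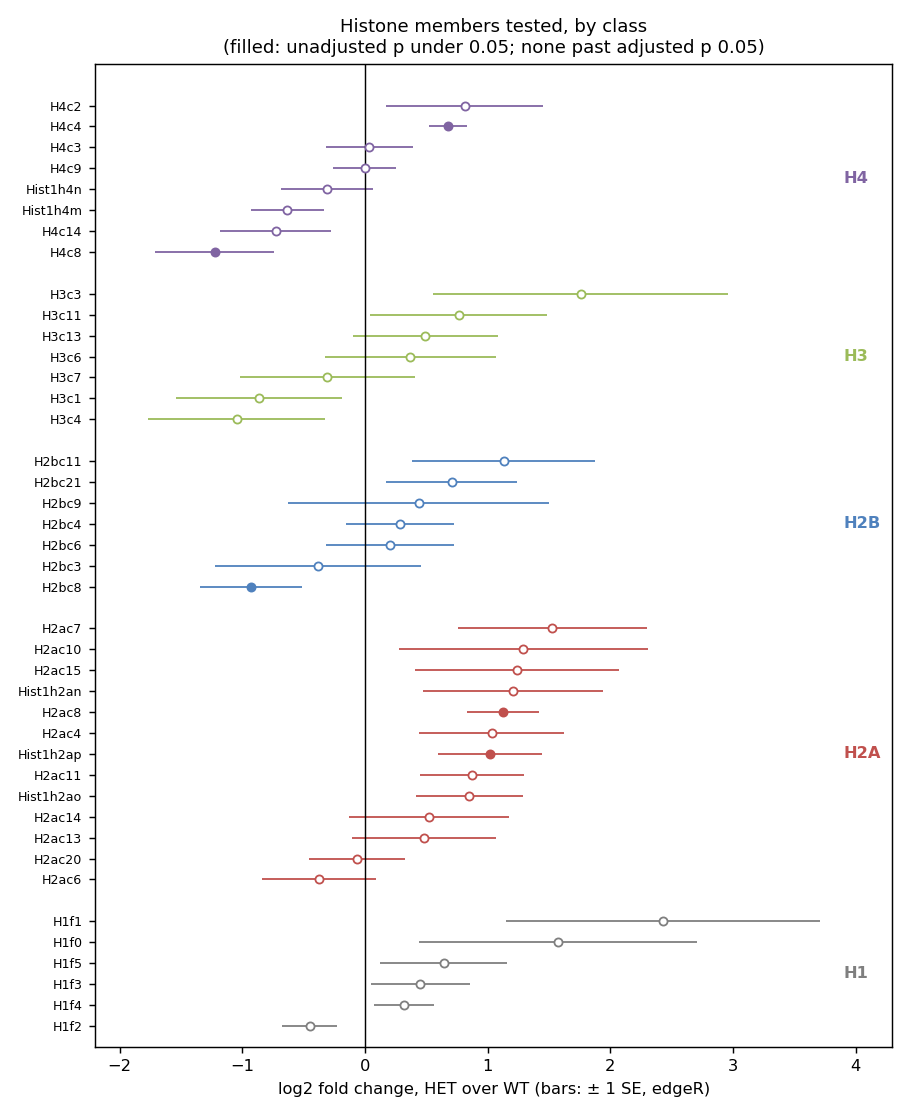
Log2 fold change of HET over WT (horizontal axis) with its standard error for the 41 tested members, arranged by class, with filled points at an unadjusted p under 0.05. Of the 13 H2A genes, 11 lie to the right of 0, whereas 5 of the 8 H4 genes lie to the left.

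Summed over all 65 members, the HET libraries held 560, 584, 560 and 508 CPM and the WT libraries 568, 374, 403 and 359 CPM. WT repeat 1 lay within the HET range and the other 3 WT repeats lay below every HET library. The HET mean of 553 ± 32.0 and the WT mean of 426 ± 96.5 (SD, n = 4 each) gave a ratio of 1.30, or 1.46 with WT repeat 1 left out. Fewer cells of a kind and less RNA per cell cannot be told apart in such bulk libraries. The largest class difference was that of H2A, whose mean sums were 223 and 128 CPM. The H2A sum was 229, 264, 224 and 175 CPM in HET and 225, 69.1, 127 and 90.0 CPM in WT, with a ratio of means of 1.75 (2.34 without WT repeat 1). The ratios were 1.12 for H1, 1.12 for H2B, 1.11 for H4 and 1.01 for H3, all with overlapping groups. As a share of member CPM, H2A took 34.5% to 45.2% in HET, 39.5% in WT repeat 1 and 18.5% to 31.4% in the other WT repeats.

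**Figure D2:**
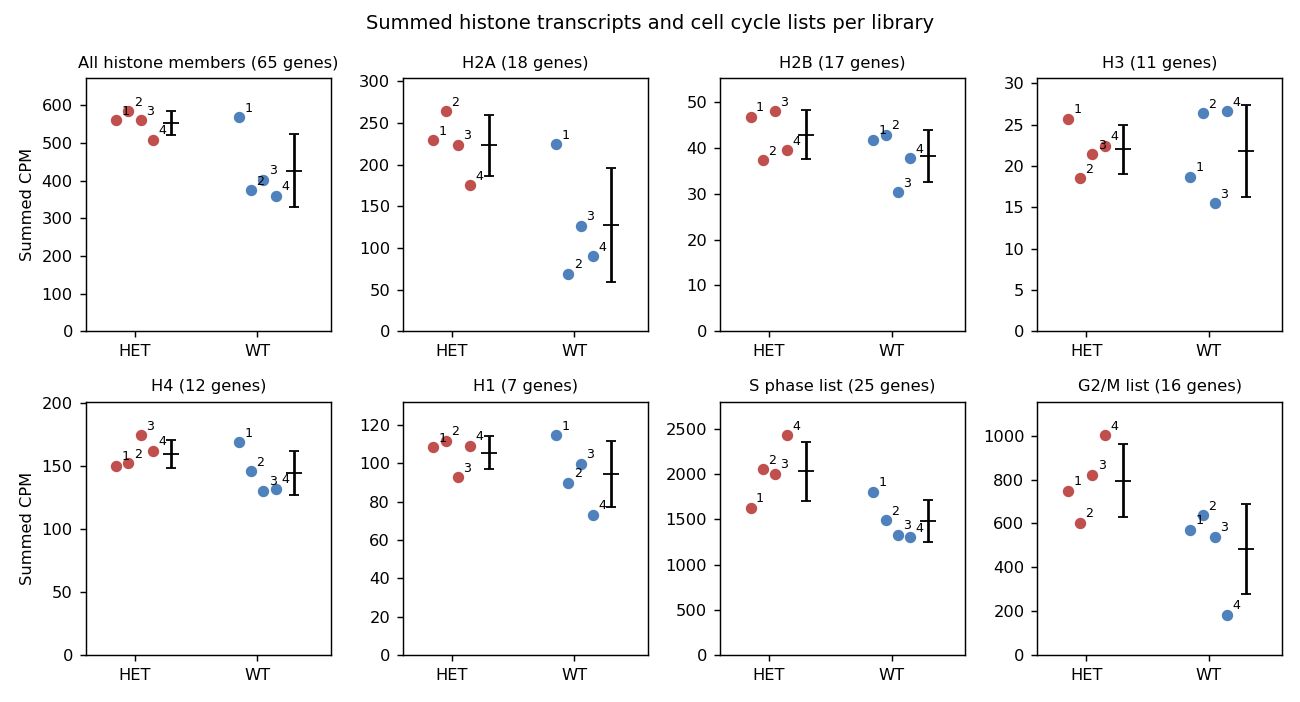
Summed CPM per library (vertical axes, from 0) for all members, for each histone class and for the S phase and G2/M lists, with each numbered point 1 library and the bar the group mean ± SD. In the panels of all members and of H2A, WT repeat 1 sits among the HET libraries and WT repeats 2 to 4 sit below them.

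Of the 13 tested H2A genes, 11 had positive log2 fold changes. Hist1h2ap (chr13:21833026-21833507, minus strand, a single exon) had 65.4, 93.1, 75.1 and 46.6 CPM in HET and 68.3, 14.6, 32.8 and 22.2 CPM in WT. Its WT repeat 1 lay inside the HET range, and the other 3 lay below it. The log2 fold change was 1.02 (SE 0.43, adjusted p = 0.642 in edgeR). H2ac11 (chr13:22042460-22042944) had 54.8, 49.9, 44.3 and 37.3 CPM in HET and 54.1, 9.86, 22.7 and 15.1 CPM in WT, which is the same arrangement of libraries, with a log2 fold change of 0.87 (SE 0.42, adjusted p = 0.709). Hist1h2ao had 26.0, 24.6, 23.2 and 18.5 CPM against 24.5, 3.56, 13.4 and 9.71 CPM, with a log2 fold change of 0.85 (SE 0.43, adjusted p = 0.716). These 3 genes encode nearly the same message, as described with the shared sequence, so they are not 3 separate observations.

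H2ac8 (the older Hist1h2ae, chr13:23570517-23571220, minus strand) differed from them in that WT repeat 1 did not stand out. It had 35.6, 46.8, 35.2 and 25.0 CPM in HET and 18.7, 9.04, 22.5 and 15.1 CPM in WT, so all HET libraries lay above all WT libraries. The log2 fold change was 1.13 (SE 0.30), with an unadjusted p of 0.00191 and an adjusted p of 0.328 in edgeR. Over the 8 fits that each left out 1 library, the log2 fold change stayed between 0.93 and 1.32 and the adjusted p between 0.362 and 0.716.

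WT repeat 1 was the highest WT library in 11 of the 13 tested H2A genes, compared with 24.5% of all tested genes. In 8 of the 13, the other 3 WT libraries all lay below all 4 HET libraries, compared with 4.39% of all genes and 11 of the 41 tested members. Without WT repeat 1, 10 members were higher in HET at an unadjusted p under 0.05 (beside 3.7% of all genes), of which 7 were H2A genes, and 1 was lower (H4c8, beside 3.52%). None of them was past an adjusted p of 0.05 in that edgeR fit (beside 0.0463% of all genes). In that fit Hist1h2ap had a log2 fold change of 1.59 (SE 0.30) and H2ac11 of 1.55 (SE 0.30), both with an adjusted p of 0.128. This library was singled out after its values were seen. H2A members share a median of 76.2% of their 100-base stretches with other annotated genes, so their reads are not independent. The numbers of H2A genes given here are therefore not numbers of separate observations. H2ac15 and H2ac8 were the H2A genes in which another WT library was the highest. H2ac20 and H2ac6 were the H2A genes with negative log2 fold changes, -0.07 (SE 0.39) and -0.38 (SE 0.46).

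**Figure D3:**
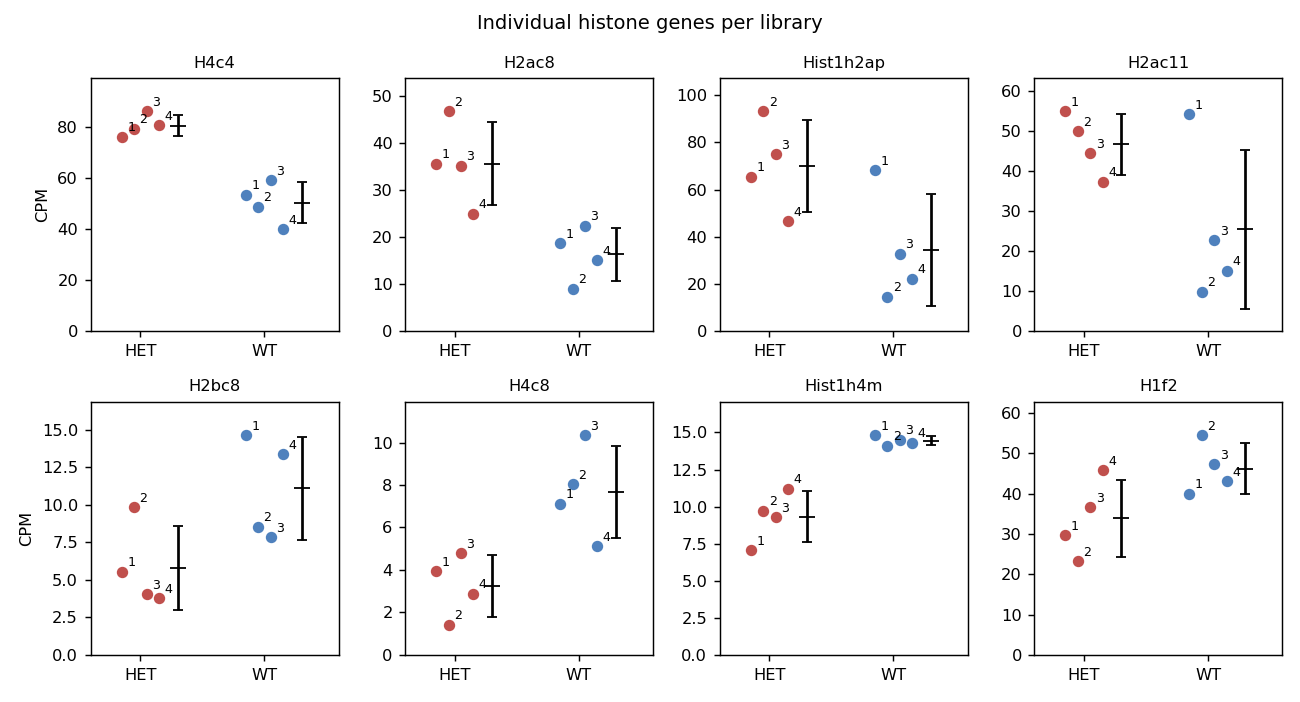
CPM per library (vertical axes, from 0) for 8 named histone genes in HET and WT, with each numbered point 1 library and the bar the group mean ± SD. H4c4 and H2ac8 show HET above WT without overlap, H4c8 and Hist1h4m show the opposite, and Hist1h2ap and H2ac11 have WT repeat 1 at the HET level.

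Among the H4 genes, which encode the least variable of the core histones, single members went in opposite directions. H4c4 (the older Hist1h4d, chr13:23581598-23582735, plus strand, a single exon) had 76.2, 79.4, 86.1 and 80.7 CPM in HET and 53.5, 48.8, 59.2 and 40.1 CPM in WT. Its 2 groups were each narrow and did not overlap. The log2 fold change was 0.68 (SE 0.15), with an unadjusted p of 0.000565 and an adjusted p of 0.233 in edgeR. It had the lowest p of all members and was the member with the most counts, 4564 over the 8 libraries.

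H4c8 (chr13:23531050-23531519) had 3.94, 1.42, 4.79 and 2.88 CPM in HET and 7.13, 8.03, 10.3 and 5.11 CPM in WT. All WT libraries lay above all HET libraries, with a log2 fold change of -1.23 (SE 0.49, unadjusted p = 0.0245, adjusted p = 0.612). Hist1h4m (chr13:21811746-21812147) had 7.07, 9.72, 9.29 and 11.2 CPM in HET, below all the WT values of 14.8, 14.1, 14.5 and 14.3 CPM, with a log2 fold change of -0.63 (SE 0.30, adjusted p = 0.699). Its 4 WT values were almost equal, at 14.4 ± 0.302 (SD, n = 4). The near-copy Hist1h4n, which shares most of the letters of Hist1h4m, had overlapping groups and a log2 fold change of -0.31 (SE 0.38).

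The other abundant H4 genes gave no difference in either direction beyond their spread. H4c9 averaged 28.3 ± 4.21 CPM in HET and 28.3 ± 9.24 CPM in WT (SD, n = 4), and the log2 fold change was -0.0033 (SE 0.26), an estimate whose sign changed with the scaling. H4c3 averaged 19.1 ± 6.38 CPM and 18.5 ± 8.06 CPM, with a log2 fold change of 0.04 (SE 0.35). The 12 H4 genes together held 150, 152, 174 and 162 CPM in HET and 168, 146, 130 and 132 CPM in WT. Again the highest WT value was that of repeat 1.

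Per kb, most H2B genes were less abundant than the H2A genes they are paired with on the chromosome, by widely differing amounts. Of the H2A and H2B members, 12 pairs lay head to head within 1000 bases, and in 11 of these the H2A gene had the higher CPM per kb. The ratio of H2A to H2B per kb ran from 0.465 to 1386 across the pairs, and it was 2.70 for H2ac8 and H2bc8. It depends on model length. For H2ac20 and H2bc21, with 520 and 2620 exon bases, it was 9.83, whereas their CPM ratio per library ran from 0.746 to 6.90. The widest gap was between Hist1h2ap at 108 and Hist1h2br at 0.0783 CPM per kb, with 235 bases between the models, and Hist1h2ao and Hist1h2bq were at 37.4 and 0.179. All 4 of these genes share most of their sequence with other genes (86.4% of 100-base stretches for Hist1h2br and 94.8% for Hist1h2bq), so their levels depend on how reads with several alignments were counted, which was not stated. H2ac11 stood at 74.3 against 9.17 for H2bc11. The pair with H2B ahead was H2ac6 at 4.0 and H2bc4 at 8.62 CPM per kb, and H2ac12 (1.08) and H2bc12 (0.947) were close to each other near the counting floor. Hist1h2br had counts in all 4 HET libraries, at most 0.804 CPM, and none in WT, but its 14 counts in all were too few to be tested.

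**Figure D4:**
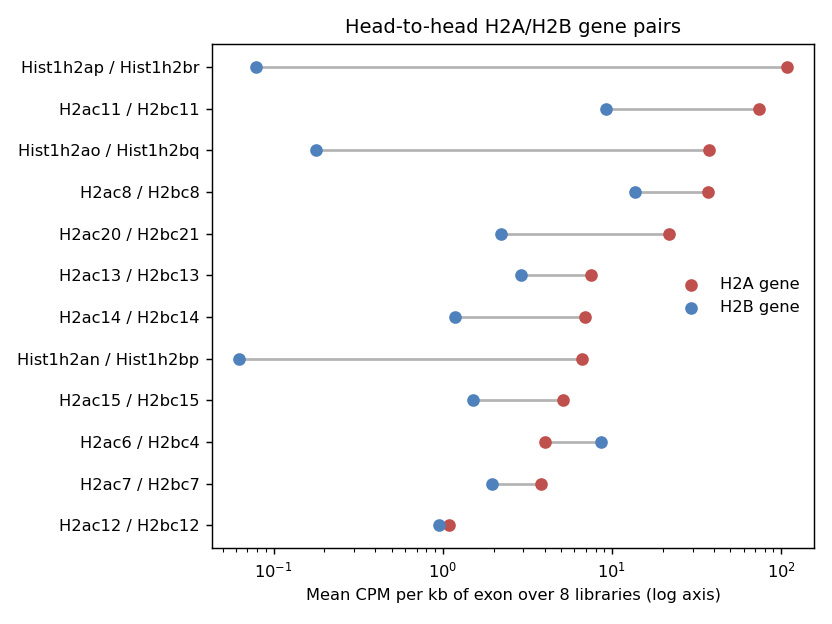
Mean CPM per kb of exon over the 8 libraries (horizontal log axis) for the 12 head-to-head pairs of an H2A gene and an H2B gene, joined by a line. In 11 pairs the H2A point lies to the right of the H2B point.

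H2bc8, which shares its promoter region with H2ac8, had 5.55, 9.84, 4.05 and 3.79 CPM in HET and 14.6, 8.53, 7.82 and 13.4 CPM in WT. The groups overlapped through HET repeat 2, and the log2 fold change was -0.93 (SE 0.42, unadjusted p = 0.0430, adjusted p = 0.667). The neighbors thus had fold changes of opposite sign, 1.13 for H2ac8 and -0.93 for H2bc8. Per library, the CPM of H2ac8 was 6.42, 4.75, 8.70 and 6.60 times that of H2bc8 in HET and 1.28, 1.06, 2.87 and 1.13 times in WT, so the ratios did not overlap. The pair was picked out after the values were seen, and this ratio was given no test. H2bc11 had 6.91, 4.66, 8.54 and 3.18 CPM in HET and 0.190, 1.32, 4.04 and 5.11 CPM in WT, with WT repeat 1 the lowest, opposite to its place for H2ac11. The remaining tested H2B genes, H2bc4, H2bc21, H2bc6, H2bc3 and H2bc9, had adjusted p-values between 0.830 and 0.962.

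H3 members, whose protein tails carry many of the known histone marks, had few counts and wide spreads. H3c1 had 1.21, 4.27, 3.15 and 2.27 CPM in HET and 1.43, 10.2, 2.65 and 5.53 CPM in WT. Its groups overlapped, with a log2 fold change of -0.86 (SE 0.67, adjusted p = 0.839). H3c3 had 1.93, 1.42, 4.20 and 1.52 CPM in HET and 2.47, 0, 0 and 0.104 CPM in WT, again with WT repeat 1 apart from the other WT repeats. Its log2 fold change of 1.76 (SE 1.20, adjusted p = 0.801) rests on WT libraries at or near 0 and is no bound. The 7 tested H3 genes ranged from -1.05 to 1.76 in log2 fold change, 4 of them positive, and their adjusted p-values ran from 0.801 to 0.958.

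The most abundant linker histones were H1f2, H1f5 and H1f4, which are among the replication-dependent H1 subtypes of the chromosome 13 cluster. H1f2 had 29.7, 23.3, 36.7 and 45.8 CPM in HET and 40.0, 54.6, 47.3 and 43.1 CPM in WT, and it was the H1 gene whose mean was lower in HET. The groups overlapped, with a log2 fold change of -0.45 (SE 0.22, adjusted p = 0.709). H1f5 had 20.3, 39.2, 20.2 and 11.8 CPM in HET and 33.6, 7.21, 11.4 and 6.37 CPM in WT. Here too WT repeat 1 lay within the HET range and WT repeats 2 to 4 lay below it. The log2 fold change was 0.64 (SE 0.52, adjusted p = 0.844) and 1.46 (SE 0.42, adjusted p = 0.413) without WT repeat 1. It was 0.26 without HET repeat 2, 0.39 without WT repeat 4 and 0.42 without WT repeat 2. H1f4 had a log2 fold change of 0.32 (SE 0.25) and H1f3 of 0.45 (SE 0.40).

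H1f0, the replacement linker histone that is associated with cells leaving the cycle, is a single gene on chromosome 15 (chr15:79028450-79030504). It had 7.32, 8.42, 7.19 and 1.97 CPM in HET and 3.23, 0, 5.17 and 0 CPM in WT. The groups overlapped through HET repeat 4, and the log2 fold change of 1.57 (SE 1.13, adjusted p = 0.818) rests on 2 WT libraries at 0. It ranged from 1.16 (without WT repeat 2 or, separately, WT repeat 4) to 2.52 (without WT repeat 3) with 1 library left out and was 3.49 in limma-voom, 3.33 on log2(TPM + 0.1) and 2.78 with the replicate block, none past the adjusted threshold. An antisense gene, Gm49544, overlaps H1f0, and reads of the 2 cannot be told apart without the strand setting. The same limit applied to 22 members in all, H1f0 included. Among them was every H2A gene with a GENCODE position, such as Hist1h2ap, H2ac11, Hist1h2ao and H2ac8. H4c4, H4c8 and H2bc8 had no annotated gene on the other strand. H1f1 had counts in 5 libraries and none in HET repeat 3 or WT repeats 2 and 4, with a log2 fold change of 2.43 (SE 1.28, adjusted p = 0.732). H1f10 had 10 counts in all and was not tested.

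By position, the chromosome 13 cluster falls into 2 blocks. The first (chr13:21715763-22043676) holds 24 members, among them Hist1h2ap, Hist1h2ao, H2ac11, H4c9 and Hist1h4m. It summed to 241, 270, 238 and 194 CPM in HET and 268, 95.8, 139 and 123 CPM in WT. The second (chr13:23531050-23934156) holds 29 members, among them H4c4, H2ac8, H2bc8 and H4c8. It summed to 280, 269, 296 and 278 CPM in HET and 261, 240, 237 and 207 CPM in WT, so here every HET library lay above every WT library, including WT repeat 1. Means of the second block were 281 ± 11.1 and 236 ± 22.4 CPM (SD, n = 4). This sum includes H4c4, with means of 80.6 CPM in HET and 50.4 in WT, and H2ac8, with 35.7 and 16.3. The differences of these 2 genes together exceed that of the block means, so the block is not an observation separate from them. Median log2 fold changes were 0.76 over the 13 tested members of the first block, 10 of them positive, and 0.32 over the 23 of the second, 15 of them positive. The 8 members on chromosome 3 summed to 18.7 to 36.3 CPM in HET and 20.6 to 37.2 CPM in WT.

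Members also differed in how far their reads can be told apart. The share of 100-base stretches of a member's transcripts that also occur in another annotated gene had a median of 76.2% for H2A, 42.9% for H3, 40.1% for H2B, 25.4% for H4 and 3.27% for H1. It was 92.2% for Hist1h2ap, 92.7% for Hist1h2ao, 76.2% for H2ac11 and 88.1% for Hist1h4m, whose reads could be split or lost depending on how the authors' counting treated multiple alignments, which was not stated. It was 30.7% for H2ac8, 44.9% for H2bc8 and 38.5% for H4c8, and 0% for H4c4 and H1f5. Of the 14 tested members with 50% or more shared, 12 had positive log2 fold changes, and of the 27 below 50%, 16 did, with medians of 0.83 and 0.29. H2A genes make up most of the first group, so class and shared sequence cannot be told apart there. Among members with a stem-loop, those whose models run 100 bases or more beyond it held 52.1% of member CPM in 16 genes, and their tested members had a median log2 fold change of 0.04. Those whose models end within 100 bases of it held 33.8% in 20 genes, with a median of 0.85. The 28 members without the stem-loop in their model held 13.8%, with a median of 0.76. All 13 tested members of this last group had positive log2 fold changes. The number was 7 of 13 where models end within 100 bases and 8 of 15 where they run further. The classes were spread unevenly over these groups, so class and model end cannot be told apart. Some models without the stem-loop are short and may end before it, so that group does not mark a kind of mRNA.

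Other genes of the histone pathway were examined as lists, and no gene of any list passed the adjusted threshold in edgeR. Beside the counts below, 3.34% of all tested genes were higher and 3.88% lower in HET at an unadjusted p under 0.05. Of 8 tested histone variants that are made outside S phase or replace the replicative forms, 2 were higher in HET at an unadjusted p under 0.05 and none was lower. H2az1, which encodes the variant H2A.Z, had 382, 452, 419 and 449 CPM in HET and 318, 288, 231 and 216 CPM in WT without overlap, with a log2 fold change of 0.69 (SE 0.12, adjusted p = 0.0971). H2ax, the variant phosphorylated at DNA breaks, had a log2 fold change of 0.60 (SE 0.22, adjusted p = 0.587). Of 20 genes for the processing and decay of histone mRNA, 1 was lower, the uridylyltransferase Tut7 (log2 fold change -0.48, SE 0.16, adjusted p = 0.554), and none was higher, which is near the share over all genes. Among 22 histone chaperones, which carry histones to DNA, none reached an unadjusted p of 0.05 in either direction. The lowest p-values there were those of Atrx (log2 fold change -0.20, SE 0.10), Hat1 (0.33, SE 0.16) and Chaf1b (0.59, SE 0.29), with adjusted p-values of 0.706.

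The S phase and G2/M lists had mostly positive fold changes. Of 25 S phase genes, 23 had positive log2 fold changes, with a median of 0.41, and 9 were higher in HET at an unadjusted p under 0.05, led by Dut (0.75, SE 0.17, adjusted p = 0.233), Rrm2 (0.89, SE 0.24, adjusted p = 0.414) and Mcm4 (0.49, SE 0.20, adjusted p = 0.616). Their sums were 1631, 2054, 2007 and 2435 CPM in HET and 1808, 1490, 1332 and 1305 CPM in WT, so that WT repeat 1 was again the highest WT library and lay within the HET range. Within HET, however, repeat 4 had the highest S phase sum and the lowest H2A sum. Rrm2, a subunit of ribonucleotide reductase, had 145 CPM in WT repeat 1 and 66.8 to 80.8 in the other WT repeats. Of 16 G2/M genes, 15 were positive and 4 were higher. The 4 were led by Ccnb2 (1.53, SE 0.26, adjusted p = 0.0870 in edgeR), Cdc20 (0.82, SE 0.23, adjusted p = 0.428) and Cenpe (1.18, SE 0.38, adjusted p = 0.547). The G2/M sums were 750, 603, 822 and 1004 CPM in HET and 572, 637, 540 and 184 CPM in WT, so that here WT repeat 2 was the highest WT library and WT repeat 1 lay below every HET library. The part of the cell cycle lists in the histone values was not tested.

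Markers of other cells were also read in the same libraries. The B cell genes were lower in HET at an unadjusted p under 0.05 for 7 of 9, led by Cd74, Cd22 and Ptprc, with sums of 20878 to 21814 CPM against 23779 to 26487. T cell genes summed to 337 to 644 CPM in HET and 184 to 483 CPM in WT, and Cd3e was above 0 in all 8 libraries. All 11 tested T cell genes had positive log2 fold changes, none at an unadjusted p under 0.05. Plasmablast genes had no member at that threshold, and HET repeat 1 held 2095 CPM of them, of which 1576 were Jchain, against 241 to 550 in the other libraries. Myeloid genes summed to 245 to 368 CPM in HET and up to 684 CPM in WT, 1 of 7 tested was lower (Csf1r), and Lyz2 stood at 399 CPM in WT repeat 2 and at 0 in WT repeats 1 and 4. WT repeat 1, in which the H2A genes were highest among WT, was at neither extreme of the T cell, plasmablast or B cell sums, and its myeloid sum was the lowest of the WT libraries. The part of these cells in the histone values was not tested.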

How the data were processed

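RNA was measured in 4 HET and 4 WT libraries. The authors prepared them with an adapted SMART-Seq2 protocol, which has no molecular identifiers, aligned reads with HISAT2 2.2.1 to GRCm38 (mm10) and counted them per gene with HTSeq. No source used here gave the annotation release, the strand setting or the treatment of multiple alignments. One deposited table gives read counts as whole numbers for 24259 symbols, and the other gives the authors' TPM for 24232. In the 4 checkable members whose exons are shorter than the genomic span, the length behind the authors' TPM exceeded the exon length (8710 against 1156 bases for H2bc4), so levels between genes were computed here as CPM per kb of GENCODE M21 exon.

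Counts were fitted in R 4.3.3 with edgeR 4.0.16. After filterByExpr (12744 genes kept) and TMM normalization, the robust quasi-likelihood F-test contrasted the groups with no covariate, p-values were adjusted by Benjamini-Hochberg over every tested gene, and the threshold was 0.05. The size of the log2 fold change over the root of F served as its SE. Alternatives were DESeq2 1.42.0, limma 3.58.1 on voom values and on log2(TPM + 1), log2(TPM + 0.1) or a mean TPM of at least 1, RLE and total-count scaling, omission of the filter, a stricter one (mean count of 50 or more), a block for replicate number, immunoglobulin genes and the most abundant gene left out, and each library left out. On simulated data, 12310 genes were tested and a small subset of the genes had been given known changes. The subset was drawn only from the more abundant genes, above a mean CPM that most tested members did not reach. Of the changed genes, the HET to WT test recovered 52% at a log2 fold change of 1 and 96% at 2. These shares therefore do not describe the less abundant members.

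Members named in the text were the 10 with the highest mean TPM, those at an unadjusted p under 0.05, those without overlap between groups, H1f0 and the most abundant of each class. Other members are named where a class, pair or position is described, and were chosen after their values were seen. H1f0 had been listed in the belief that it lay outside the Hist naming, but the table mostly uses newer symbols. Members, lists and tests were chosen with earlier results of these data known. RefSeq and GENCODE each matched 64 of 65 members. Replicate numbers come from the titles and do not pair the libraries. Floors of 3 counts cover counting error only. A gene of the B cell marker list is not reported here and was left out of its sums and counts.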

Additional observations from a re-analysis of the deposited data

How the results depend on the processing

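No member passed the adjusted threshold in edgeR under any scaling, filter or left-out library, nor in limma, while DESeq2 called 2 (H4c4 and H2ac8). The count of members higher in HET at an unadjusted p under 0.05 (3) was 5 in DESeq2, 5 without a filter, 8 in limma-voom, 8 on log2(TPM + 1), 7 on log2(TPM + 0.1), 9 with a mean TPM of at least 1, and 2 to 10 with a library left out, the 10 being without WT repeat 1. The count lower in HET (2) was 1 at a mean of at least 50 counts, 4 in limma-voom, 5 on both TPM scales and 5 with the TPM filter, and 1 to 2 with a library left out. With the replicate number as a block these counts were 6 and 1, but correlations of same-numbered libraries were -0.051, 0.013, 0.0028 and -0.026, so the numbers do not pair the libraries, and the block called 0 genes in all. The median log2 fold change of tested members (0.48) was 0.29 at a mean of at least 50 counts, where 19 members remained, and 0.31 to 0.52 with a library left out. H4c9 changed sign, to 0.0028 in DESeq2, 0.0029 with RLE, 0.00012 without immunoglobulin genes, 0.0401 with the block, and -0.16 to 0.21 with a library left out. H4c3 ranged from -0.21 to 0.31 when libraries were left out. The causes were not tested. The other 12 named members kept their direction in every setting in which they were tested. The 24 members with too few counts for the filter entered only fits with another filter or with a library left out.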
